A study of Mus musculus with 6 samples.

Results

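Collagens, laminins and integrins are the genes by which cells build extracellular matrix and hold on to it. They were chosen by symbol alone: Col with a type and a chain number, Lama, Lamb or Lamc with a number, and Itga or Itgb with any suffix, leaving out 3 symbols of integrin binding proteins. The rule gave 78 of the 18194 genes measured, made up of 42 collagens, 10 laminins and 26 integrin symbols. One of the 26, Itgbl1, encodes a protein with integrin beta-like repeats and not an integrin.

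RNA came from granulosa cells, the somatic cells that line the ovarian follicle, of 23-day-old mice. Knockout (KO) mice lacked ERK1 in every cell and carried a floxed ERK2 deleted by a Cre under the Cyp19 (aromatase) promoter, which acts in granulosa cells. They were set against wild type (WT) mice, so the 2 losses and the Cre cannot be told apart. All mice were primed for 48 h with eCG (equine chorionic gonadotropin, 5 IU), a hormone that makes follicles grow. Cells were collected 0 h, 2.5 h or 4 h after hCG (human chorionic gonadotropin, 5 IU), which acts on the luteinizing hormone receptor and triggers ovulation. The groups were KO at 0 h, 2.5 h and 4 h and WT at 0 h, 2.5 h and 4 h, each with 1 array. The labels name no replicates and do not say whether animals were pooled, and the deletion of ERK1 and ERK2 was not checked here.

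Basement membranes are sheets built from laminin trimers, a network of collagen IV, nidogens and heparan sulfate proteoglycans, and one such sheet separates granulosa cells from the vascular theca. Integrins are pairs of an alpha and a beta chain that bind these proteins, and the alpha chain largely sets whether collagen, laminin or RGD-containing proteins such as fibronectin are bound. Within the ovulatory follicle granulosa cells lose their ordered contacts, and the basement membrane is breached while the corpus luteum forms.

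The values were deposited array intensities on a linear scale. A gene was read from its brightest probe set, and a mean log2 of at least 6 over the 6 arrays, an intensity of 64, was taken as the floor for signal. Over the floor were 47 members (27 collagens, 8 laminins and 12 integrins), among 11153 genes in all. Of the other members, 25 stayed under 64 on every array and 6 reached 64 on some array. With 1 array a group no pair of values has an error or a p-value, so a gene was counted as different when 2 arrays differed at least 2-fold and the brighter reached 64. Probe sets differ in brightness for reasons unrelated to RNA amount, so levels were compared between arrays and not between genes.

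Granulosa markers were high on every array, with 9 of 9 measured over the floor. Their summed intensity was 118169 to 147482 in KO cells and 74467 to 124440 in WT cells. They were above WT in 2, 8 and 9 of 9 genes at 0 h, 2.5 h and 4 h. At 4 h 5 of 9 were at least 2-fold higher in KO than in WT. In WT cells 4 of 9 were at least 2-fold lower at 4 h than at 0 h, against 0 in KO cells. Other cells were present as well. Endothelial markers summed to 983 to 1074 in KO cells and 1073 to 1736 in WT cells, with Pecam1, Tie1, Emcn, Robo4 and Vwf of 12 markers under 64 throughout. Stromal fibroblast markers other than the collagens summed to 7774 to 10018 in KO cells and 7451 to 8388 in WT cells, with 6 of 9 over the floor, and most of that sum was Fbln1. Among them Pdgfrb read 105, 66 and 98 in KO cells and 213, 379 and 264 in WT cells. Pdgfra read 554, 362 and 453 in KO cells and 789, 566 and 647 in WT cells, and both were lower in KO at each time. Stromal markers over the floor were above WT in 1, 3 and 4 of 6 genes at 0 h, 2.5 h and 4 h. Dcn among them read 1176, 1136 and 1062 in KO cells and 1173, 951 and 730 in WT cells. Macrophage and leukocyte markers summed to 3879 to 4243 in KO cells and 3911 to 4825 in WT cells, with Laptm5 the main part and the defining Ptprc under 64 throughout. By gene, 4, 6 and 6 of 9 were above WT at 0 h, 2.5 h and 4 h. Surface epithelium markers were above WT in 5, 6 and 6 of 7 genes, with Krt7 at 220, 293 and 335 in KO cells and 75, 99 and 137 in WT cells. Theca markers, several of which granulosa cells can also express, were above WT in 1, 2 and 2 of 6 genes. Cyp17a1 among them read 1845, 14251 and 13997 in KO cells and 1994, 2037 and 1399 in WT cells. The lowest KO minus WT difference among the 6 was −2.14 at 0 h, −4.53 at 2.5 h and −4.72 at 4 h on the log2 scale. The list thus held a gene far lower in KO at each time. It also held genes much higher after hCG, with largest log2 rises at 2.5 h of 3.20 in KO cells and 5.59 in WT cells. The part of theca cells in these values was not tested. Oocyte markers were above WT in 10, 10 and 4 of 10 genes at 0 h, 2.5 h and 4 h. They summed to 29690, 12542 and 10909 in KO cells and 15941, 9852 and 10488 in WT cells. In KO cells 10 of 10 were at least 2-fold lower at 2.5 h and at 4 h than at 0 h, against 0 of 10 in WT cells. The ratio of 3′ to 5′ control probe sets, a measure of RNA integrity, was higher in KO at each time for Gapdh (5.21, 3.99 and 4.24 in KO cells, against 4.79, 3.55 and 4.01 in WT cells at 0 h, 2.5 h and 4 h) and for Actb (3.30, 3.11 and 3.37 in KO cells, against 3.18, 2.56 and 2.86 in WT cells). In such bulk samples fewer cells of a type and less RNA per cell cannot be told apart.

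The promoters of 4 members on which the results turn are shown, because the genes have the largest differences by genotype (Itga2, Col24a1) or lie head to head and had like courses (Col4a1, Col4a2). Each sequence is a RefSeq window of GRCm38.p6 from 250 bases before to 50 after an annotated start, written 5′ to 3′ on the gene's strand. Capitals mark matches, on either strand, to any of 6 motifs that were chosen after the windows had been read: the cAMP response element or CRE (TGACGTCA), the AP-1 motif (TGANTCA), the CCAAT box, the GC box (GGGCGG), the RUNX motif (TGTGGT) and the C/EBP motif (TTGCNNAA). The windows lie at chr13:114932051-114932350 (minus strand) for Itga2, chr3:145292222-145292521 (plus) for Col24a1, chr8:11312777-11313076 (minus) for Col4a1 and chr8:11312555-11312854 (plus) for Col4a2.
Itga2: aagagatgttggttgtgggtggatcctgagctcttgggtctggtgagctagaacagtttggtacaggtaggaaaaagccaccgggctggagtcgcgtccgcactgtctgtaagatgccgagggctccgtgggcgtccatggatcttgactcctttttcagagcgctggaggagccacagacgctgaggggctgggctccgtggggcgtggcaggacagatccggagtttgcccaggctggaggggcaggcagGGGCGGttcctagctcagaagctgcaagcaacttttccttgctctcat
Col24a1: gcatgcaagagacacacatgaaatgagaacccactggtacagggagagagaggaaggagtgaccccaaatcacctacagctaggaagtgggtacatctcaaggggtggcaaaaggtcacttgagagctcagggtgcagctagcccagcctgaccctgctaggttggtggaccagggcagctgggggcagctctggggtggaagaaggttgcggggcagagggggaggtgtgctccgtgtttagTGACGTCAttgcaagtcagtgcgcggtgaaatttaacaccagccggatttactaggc
Col4a1: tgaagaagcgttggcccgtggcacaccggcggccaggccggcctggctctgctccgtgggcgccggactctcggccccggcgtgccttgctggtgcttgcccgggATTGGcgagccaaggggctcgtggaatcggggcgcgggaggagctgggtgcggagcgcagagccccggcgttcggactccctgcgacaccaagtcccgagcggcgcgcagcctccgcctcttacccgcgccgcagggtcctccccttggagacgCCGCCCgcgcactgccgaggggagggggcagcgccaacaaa
Col4a2: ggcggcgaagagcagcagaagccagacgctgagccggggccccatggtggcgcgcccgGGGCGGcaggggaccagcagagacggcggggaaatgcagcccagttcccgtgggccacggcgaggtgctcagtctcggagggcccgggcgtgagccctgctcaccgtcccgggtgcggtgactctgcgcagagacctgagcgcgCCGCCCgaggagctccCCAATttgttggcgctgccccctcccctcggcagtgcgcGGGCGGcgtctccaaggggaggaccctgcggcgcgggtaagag

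The Itga2 window held only a GC box, just after the start. The Col24a1 window held a CRE that begins 7 bases before the start. CRE was present in 1.79% of all 32851 windows of this length. The 57 members with a window had 63 windows, and CRE was in 1 of them, that of Col24a1. This is close to the share of all windows. The CCAAT box, spelled by its own letters, and the GC box in the Col4a windows were common, in 37.4% and 35.7% of all windows, and were found in 18 and 33 of the 57 members. AP-1 was in 7.81% of all windows and in 4 members, RUNX in 16.8% and in 6 members, and C/EBP in 10.8% and in 3 members. A match is a description of letters and not a binding site. The Col4a1 and Col4a2 windows share 78 bases on opposite strands. The GC box marked after the start in each lies in these bases and is the same site, read on both strands. The annotated genes overlap by 85 bases (Col4a1 at chr8:11198423-11312889, Col4a2 at chr8:11312805-11449287). The annotated Col4a1 gene reaches further upstream than the start on which its window is built, so this overlap does not rest on the window's start.

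Itga2, the alpha chain of the collagen receptor alpha2beta1, had the largest genotype difference among members over the floor. Its intensity at 0 h, 2.5 h and 4 h was 89, 301 and 315 in KO cells, against 131, 929 and 1630 in WT cells. The KO values were below WT at each time, and the gap was 1.47-fold at 0 h, 3.09-fold at 2.5 h and 5.17-fold at 4 h. In both genotypes Itga2 was higher after hCG. At 2.5 h it was 3.38-fold above 0 h in KO cells and 7.09-fold in WT cells, and at 4 h 3.54-fold in KO cells and 12.4-fold in WT cells. The gene was thus nearly level between 2.5 h and 4 h in KO cells, while the WT intensity was 1.75-fold higher at 4 h than at 2.5 h. The KO response at 4 h was smaller than the WT response by 1.81 on the log2 scale, a difference that has no test with 1 array a group. Itga2 is read by a single probe set, so no other probe set bears on it. It also sits on platelets and endothelial cells. Platelet markers other than Itga2b summed to 175 to 204 in KO cells and 191 to 229 in WT cells, and endothelial sums were highest in WT at 2.5 h, whereas Itga2 was highest in WT at 4 h. Their part in the Itga2 values was not tested.

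**Figure D1:**
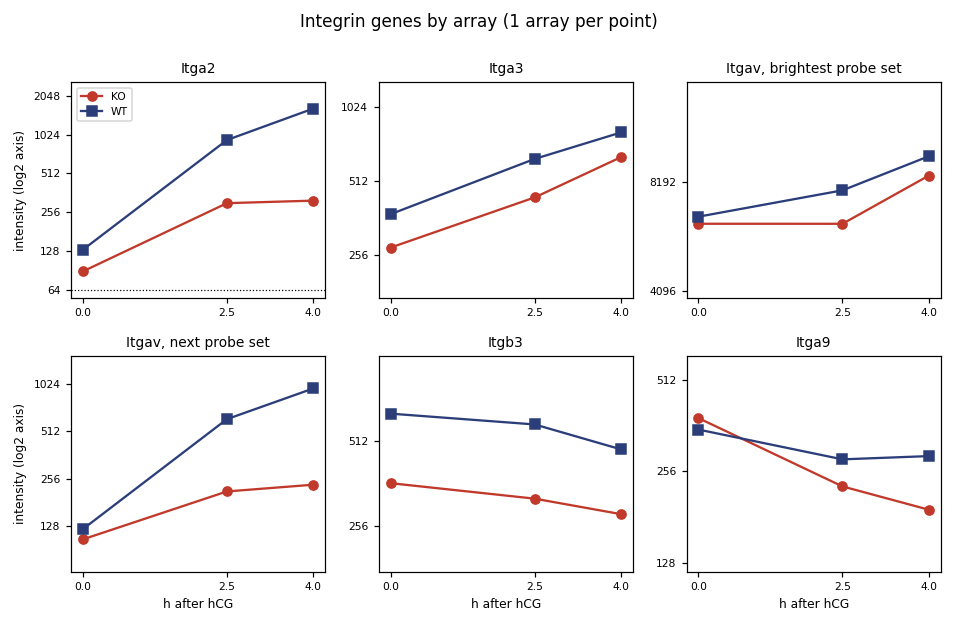
Intensity (log2 axis) of 5 integrin genes against hours after hCG, with red circles for KO, blue squares for WT, 1 array a point and a dotted line at 64; Itgav is drawn by its brightest and its next probe set. Itga2 reaches 315 in KO and 1630 in WT at 4 h, and the second Itgav probe set shows a wide gap between genotypes after hCG where the brightest shows a narrow one, with KO lower in both.

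Itgav, the alpha chain of the vitronectin and fibronectin receptors, gave different answers by probe set. The brightest read 6267, 6266 and 8515 in KO cells at 0 h, 2.5 h and 4 h, against 6555, 7750 and 9627 in WT cells, all within 1.24-fold of each other between genotypes. The next brightest read 106, 213 and 235 in KO cells, against 123, 610 and 954 in WT cells. By that probe set KO was lower by 1.52 at 2.5 h and by 2.02 at 4 h on the log2 scale, a course close to that of Itga2. The other 3 probe sets were at 64 or below on every array. The cause of the disagreement was not tested, and counts below use the brightest probe set.

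The beta chains differed less with time. Itgb3, the partner of alpha v and of the platelet alpha IIb, read 362, 319 and 281 in KO cells and 639, 585 and 477 in WT cells. Every KO value lay below every WT value, by 1.77-fold at 0 h, 1.83-fold at 2.5 h and 1.70-fold at 4 h, short of the 2-fold rule each time. Itgb1, the common beta chain that pairs with alpha2 and alpha3, read 1027, 1361 and 1499 in KO cells and 1263, 1492 and 2049 in WT cells, lower in KO at each time by 1.10-fold to 1.37-fold. Itgb5, a further partner of alpha v, read 3559, 3265 and 3695 in KO cells and 4181, 3284 and 3386 in WT cells, and KO was above WT at 4 h alone. Of its 3 other probe sets, which were also bright, 1 had KO above WT at 4 h (2228, against 2160 in WT cells) and the others had KO below.

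Itga3 and Itga6 encode alpha chains of laminin receptors. Itga3 read 275, 440 and 642 in KO cells and 376, 631 and 809 in WT cells, higher at 4 h than at 0 h by 2.33-fold in KO cells and 2.15-fold in WT cells. The hCG response of Itga3 was thus of like size in both genotypes, with a difference of 0.12 on the log2 scale. Its 2 other probe sets gave smaller responses: 192, 245 and 281 in KO cells and 210, 268 and 342 in WT cells for the brighter of them. Itga6 read 1256, 809 and 820 in KO cells and 1290, 1086 and 1042 in WT cells, lower after hCG in both. Its other probe set read 472, 338 and 318 in KO cells and 529, 601 and 492 in WT cells, so that WT was higher at 2.5 h than at 0 h and the gap between genotypes was wider. Itga9, a receptor chain for tenascin C and ADAM proteins, read 383, 228 and 191 in KO cells and 351, 280 and 287 in WT cells. At 4 h it was 2.01-fold below 0 h in KO cells and 1.22-fold below 0 h in WT cells. Its next brightest probe set read 133, 113 and 109 in KO cells and 128, 166 and 118 in WT cells. By that probe set the KO fall was smaller, and WT was higher at 2.5 h than at 0 h. Itga1, the other widely expressed collagen receptor alpha chain, read 90, 125 and 128 in KO cells and 133, 192 and 150 in WT cells. None of the 4 leukocyte alpha chains was over the floor.

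Collagen IV chains had different patterns by gene pair. Its 6 chains lie as 3 pairs of genes, and chains alpha1 and alpha2 form the network found in nearly all basement membranes. Col4a1 read 1469, 1569 and 3658 in KO cells at 0 h, 2.5 h and 4 h, against 2647, 3241 and 3692 in WT cells. Col4a2 read 572, 676 and 1373 in KO cells, against 1149, 1519 and 1549 in WT cells. For both genes KO was far below WT at 0 h and 2.5 h and close to it at 4 h. The KO values were lower for Col4a1 by 1.80-fold at 0 h, 2.07-fold at 2.5 h and 1.01-fold at 4 h. For Col4a2 the KO values were lower by 2.01-fold, 2.25-fold and 1.13-fold at the same times. The change came between 2.5 h and 4 h in KO cells, where Col4a1 was 2.33-fold and Col4a2 2.03-fold higher at the later time, against 1.14-fold and 1.02-fold in WT cells. A second Col4a1 probe set read 762, 824 and 1230 in KO cells and 1434, 1478 and 1616 in WT cells, with the gap narrowing less. Collagen IV is also made by endothelial and smooth muscle cells. Endothelial markers over the floor were below WT in 5 of 6 genes at 0 h, 5 of 6 at 2.5 h and 6 of 6 at 4 h, and smooth muscle markers in 4, 5 and 4 of 5 genes. The endothelial sum at 4 h was 1074 in KO cells and 1361 in WT cells, while Col4a1 was 3658 in KO cells and 3692 in WT cells. The part of these cells in the collagen IV values was not tested.

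**Figure D2:**
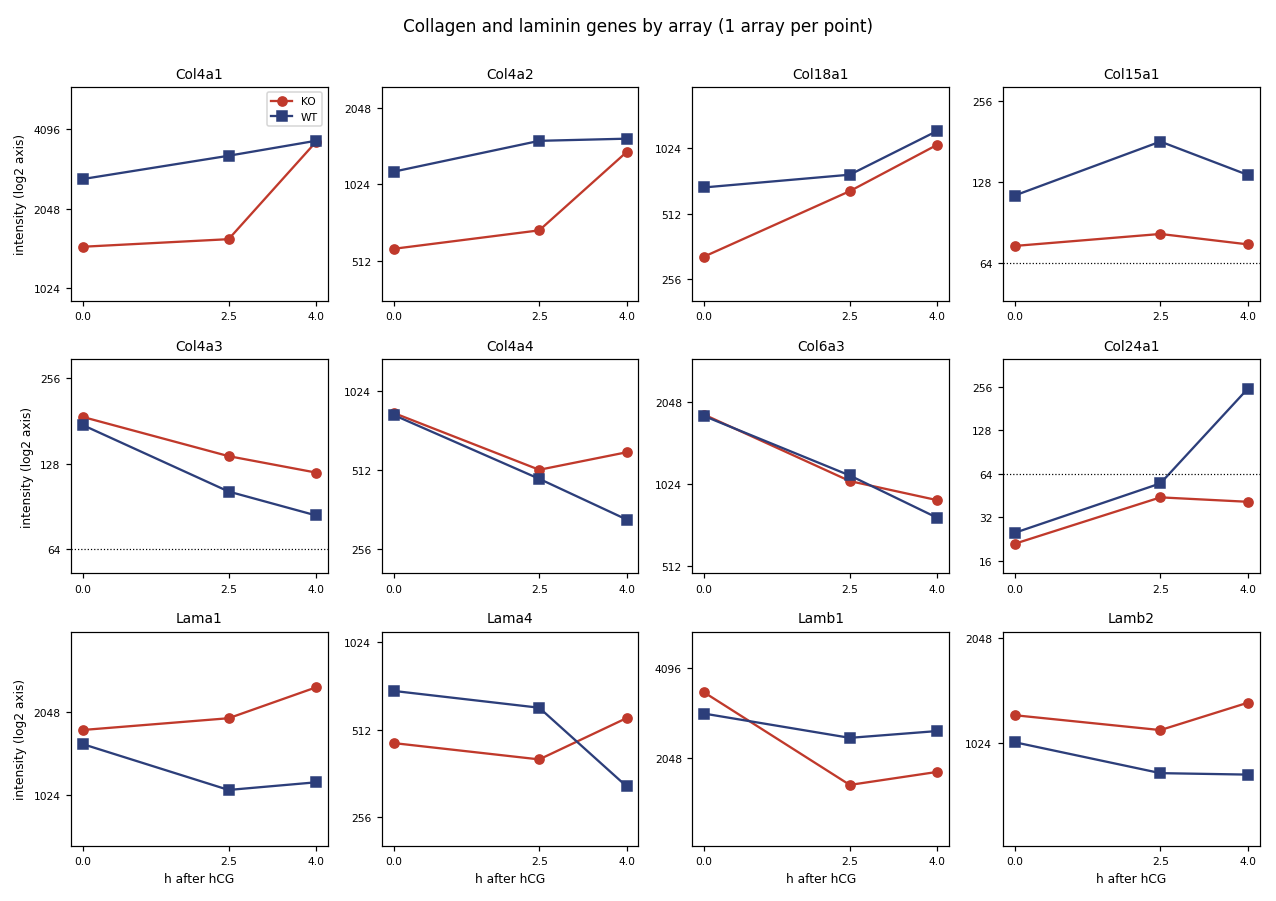
Intensity (log2 axis) of 12 collagen and laminin genes against hours after hCG, with red circles for KO, blue squares for WT, 1 array a point and a dotted line at 64. Col4a1, Col4a2 and Col18a1 start lower in KO and come near WT at 4 h, Lama1 is higher in KO after hCG, and Col24a1 exceeds 64 on the WT 4 h array alone.

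Col4a3 and Col4a4, chains of the network best known from the kidney glomerulus, were close between genotypes before hCG and lower after it. Col4a4 read 844, 513 and 598 in KO cells and 829, 474 and 332 in WT cells. It was 1.41-fold below 0 h at 4 h in KO cells and 2.50-fold below in WT cells, which left KO 1.80-fold above WT at 4 h. Col4a3 read 187, 136 and 119 in KO cells and 175, 102 and 84 in WT cells, at 4 h 1.57-fold below 0 h in KO cells and 2.08-fold in WT cells. The annotated Col4a3 and Col4a4 genes overlap by 114 bases on chr1. Col4a5, which lies head to head with Col4a6 on chromosome X, read 1824, 1327 and 1094 in KO cells and 2320, 1657 and 1498 in WT cells, lower after hCG in both genotypes and lower in KO at each time.

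The multiplexins Col18a1 and Col15a1 encode basement membrane collagens that carry sugar chains, and the end of collagen XVIII is released as endostatin. Col18a1 read 324, 650 and 1064 in KO cells and 676, 774 and 1233 in WT cells. KO was 2.09-fold lower at 0 h, 1.19-fold at 2.5 h and 1.16-fold at 4 h. At 4 h the intensity was 3.28-fold above 0 h in KO cells and 1.82-fold above it in WT cells. Its other probe set read 189, 284 and 440 in KO cells and 319, 367 and 524 in WT cells, the same order, with a smaller gap at 0 h and a larger one at 2.5 h and 4 h. Col15a1 was dim, at 74, 82 and 75 in KO cells and 114, 181 and 136 in WT cells. It was lower in KO at every time and 2.21-fold lower at 2.5 h. Endothelial markers also summed lower in KO at each time, at 983, 1064 and 1074, against 1073, 1736 and 1361 in WT cells. The part of endothelial cells in the Col15a1 values was not tested.

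Collagen VI forms beaded filaments around cells. Col6a3 read 1846, 1051 and 894 in KO cells and 1824, 1102 and 770 in WT cells, 2.06-fold below 0 h at 4 h in KO cells and 2.37-fold in WT cells. Col6a4 read 1021, 621 and 547 in KO cells and 1145, 720 and 563 in WT cells, at 4 h 1.87-fold below 0 h in KO cells and 2.03-fold in WT cells. The genotypes were within 1.16-fold of each other for both genes at every time. Col6a1 and Col6a2 differed less with time. Col6a1 read 1614, 2035 and 1852 in KO cells and 2450, 2363 and 2029 in WT cells, and Col6a2 read 1333, 1271 and 1437 in KO cells and 1797, 1401 and 1223 in WT cells. Chains that assemble into 1 protein thus had different courses after hCG.

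Among fibrillar collagens, the bright Col3a1 and Col1a2 differed little between genotypes by their brightest probe sets. Col3a1 read 5138, 3820 and 4723 in KO cells and 4687, 4072 and 3769 in WT cells. Its other probe set read 153, 157 and 168 in KO cells and 241, 186 and 124 in WT cells, with KO lower at 0 h. Col1a2 read 3459, 2765 and 3207 in KO cells and 4153, 3182 and 2613 in WT cells. The Col1a2 responses at 4 h differed by 0.56 on the log2 scale. Both genes are typical products of stromal fibroblasts, whose other markers were seen on every array. Col11a1, a chain of a minor fibrillar collagen that controls fibril size, read 1116, 598 and 484 in KO cells and 1060, 646 and 601 in WT cells, at 4 h 2.31-fold below 0 h in KO cells and 1.76-fold in WT cells. Its other probe set had the same course after hCG, at 574, 351 and 275 in KO cells and 756, 498 and 468 in WT cells, with KO lower at each time. Of the FACIT collagens, which sit on fibril surfaces, Col9a2 read 140, 101 and 96 in KO cells and 242, 156 and 149 in WT cells, 1.54-fold to 1.73-fold lower in KO. Col16a1 read 289, 313 and 274 in KO cells and 393, 408 and 401 in WT cells, also lower in KO at each time.

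A pair of collagens under the floor is named after their values were seen, because both differed at least 2-fold with 1 array over 64. Col24a1, a minor fibrillar collagen, read 21, 44 and 41 in KO cells and 25, 55 and 249 in WT cells. Only the WT 4 h array was over 64, at 6.07 times the KO 4 h value, 9.96 times the WT 0 h value and 4.53 times the WT 2.5 h value. Ratios to values under 64 depend on the background. Col14a1, a FACIT collagen, read 47, 51 and 38 in KO cells and 61, 113 and 62 in WT cells, 2.22-fold lower in KO at 2.5 h.

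Laminins are trimers of an alpha, a beta and a gamma chain, and the alpha chain is bound by integrins. Lama1 read 1766, 1950 and 2530 in KO cells and 1567, 1065 and 1136 in WT cells. After hCG it moved in opposite directions, 1.43-fold above 0 h at 4 h in KO cells and 1.38-fold below in WT cells, and KO was 2.23-fold higher at 4 h. Lama4, the alpha chain typical of vessel and mesenchymal basement membranes, read 461, 405 and 562 in KO cells and 697, 610 and 327 in WT cells. Its order turned between 2.5 h and 4 h: KO was 1.51-fold lower at 0 h and 2.5 h and 1.72-fold higher at 4 h, and the WT value at 4 h was 2.13-fold below 0 h. Lama2 read 572, 417 and 400 in KO cells and 409, 295 and 290 in WT cells, 1.38-fold to 1.41-fold higher in KO at each time. Lama5 differed by less than the 2-fold rule in every comparison.

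Among beta chains, Lamb1 read 3396, 1660 and 1836 in KO cells and 2882, 2389 and 2518 in WT cells. It was 2.05-fold below 0 h at 2.5 h in KO cells and 1.21-fold below in WT cells. Its second probe set gave 284, 116 and 136 in KO cells and 245, 177 and 201 in WT cells. Lamb2 read 1229, 1114 and 1335 in KO cells and 1028, 838 and 830 in WT cells, higher in KO at each time. Lamc1, the gamma chain of most laminins, read 426 to 471 in KO cells and 446 to 470 in WT cells by its brightest probe set. The other read 170, 216 and 166 in KO cells and 233, 315 and 283 in WT cells, lower in KO at each time. Lama3 and Lamb3, chains of the epithelial laminin 332, were under the floor.

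Set against all genes over the floor, members were more often lower in KO. KO values were below WT at all 3 times for 22 of 47 members (46.8%), against 14.5% of all genes, and above WT at all 3 times for 5 members (10.6%), against 27.6% of all genes. The 5 were Col4a3, Col4a4, Lama1, Lama2 and Lamb2. The 22 held 15 of 27 collagens and 7 of 12 integrins and no laminin, and included Col4a1, Col4a2, Col18a1, Itga2, Itga3, Itgb1 and Itgb3. No test was made of these shares, since genes are not replicates. The median log2 difference of members was −0.21 at 0 h, −0.20 at 2.5 h and −0.12 at 4 h, against −0.03, 0.14 and 0.20 over all genes. By family the medians at the 3 times were −0.26, −0.20 and −0.13 for collagens, 0.12, −0.05 and 0.39 for laminins and −0.27, −0.30 and −0.28 for integrins. Scaling the arrays by cyclic loess took the median of all genes to 0.01 at 2.5 h and 0.03 at 4 h and that of members to −0.32 and −0.23. With it, 25 of 47 members were lower at all times, against 20.7% of all genes, and 4 were higher, against 21.8%, while laminins were below WT in 3, 5 and 3 of 8 genes, against 3, 4 and 1 with the deposited scaling. With the mean of all probe sets 22 members were lower at all times, against 15.97% of all genes, and 3 were higher, against 25.9%, as Col4a3 and Col4a4 went below WT at 0 h. The 3′ to 5′ ratios above were higher in KO at the same 3 times. Endothelial markers were below WT in 5, 5 and 6 of 6 genes, with a median of −0.80 at 2.5 h. Smooth muscle markers were below WT in 4, 5 and 4 of 5 genes. Stromal fibroblast markers were below WT in 5, 3 and 2 of 6 genes, with Pdgfra and Pdgfrb below at each time. Surface epithelium markers were mostly above WT. The part of RNA quality or of these cells in the members' values was not tested.

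**Figure D3:**
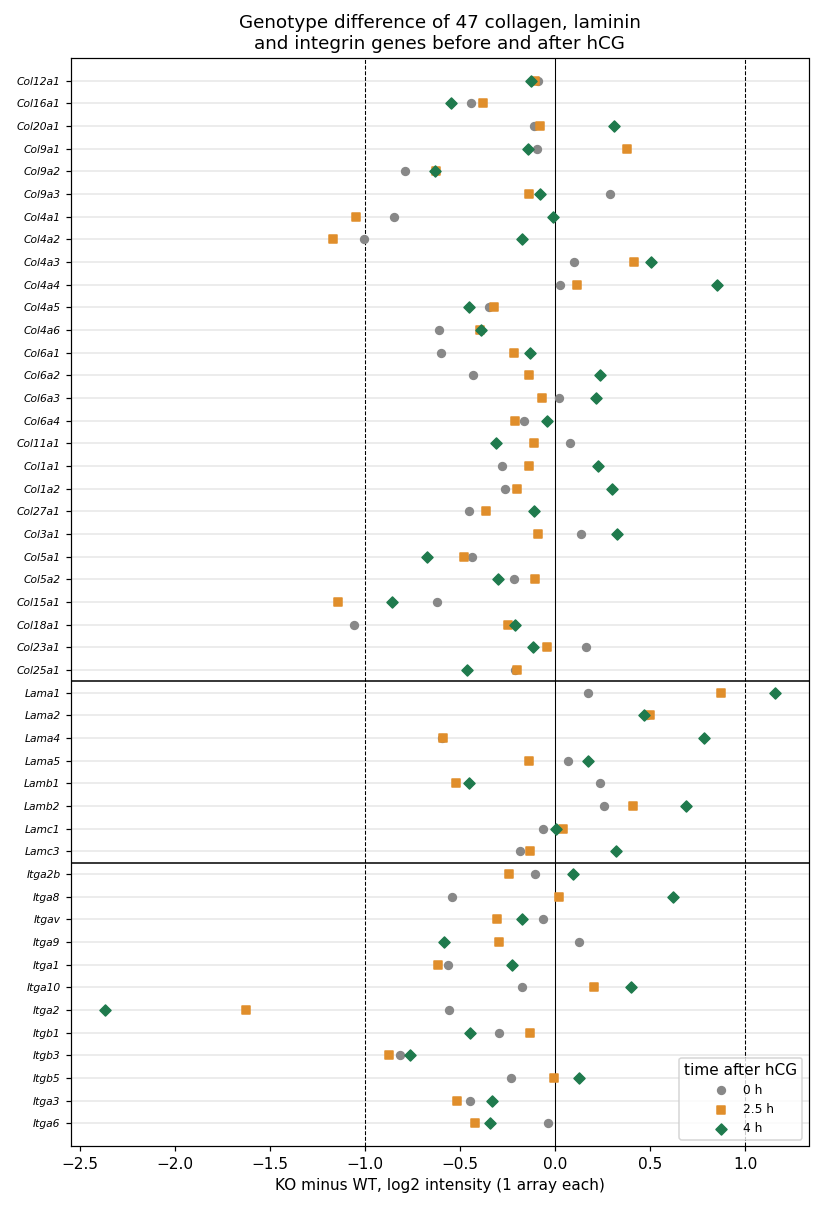
KO minus WT difference (log2) of the 47 members over the floor at 0 h, 2.5 h and 4 h, 1 point a gene, with dashed lines at the 2-fold limits. Most collagens and integrins lie under 0, with medians of −0.26 and −0.27 at 0 h, and Itga2 is the lowest point at 2.5 h and 4 h.

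Between genotypes 0 to 4 members passed the 2-fold rule in either direction at a time, nearly all of them lower in KO. At 0 h 0 members were higher and 2 lower in KO (Col18a1 and Col4a2), against a background of 0.681% and 0.852% of all genes. At 2.5 h 0 were higher and 4 lower (Col15a1, Col4a1, Col4a2 and Itga2), against 1.44% and 2.75%. At 4 h Lama1 was higher and Itga2 lower, against 5% and 3.51%. At 4 h cyclic loess scaling left Lama1 at 0.94 on the log2 scale, short of the limit. Over all 9 comparisons of a pair of arrays, genotype and time together, 15 of the 47 members met the rule at least once, against 22.6% of all genes. The other 32 read 55 to 9627 and had KO minus WT differences of −0.87 to 0.69 on the log2 scale. The 31 members under the floor read 13 to 249 and include the network collagens VIII and X, Col2a1 of cartilage and Itgb4 of hemidesmosomes.

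After hCG, all comparisons within a genotype share its 0 h array. The KO 0 h array also had the highest oocyte marker sum, 29690, and the part of oocytes in the KO responses was not tested. In KO cells 2 members were higher at 2.5 h (Col18a1 and Itga2) and 1 lower (Lamb1), against 3.35% and 3.57% of all genes. In WT cells 1 member was higher at 2.5 h (Itga2) and 0 lower, against 3.3% and 1%. At 4 h, 5 members were higher in KO cells (Col18a1, Col4a1, Col4a2, Itga2 and Itga3) and 3 lower (Col11a1, Col6a3 and Itga9), against 3.87% and 4.56%. In WT cells 2 were higher at 4 h (Itga2 and Itga3) and 5 lower (Col4a3, Col4a4, Col6a3, Col6a4 and Lama4), against 4.91% and 9.11%. With cyclic loess the WT split was 3 higher and 2 lower. Between 2.5 h and 4 h, Col4a1 and Col4a2 passed the rule in KO cells, against 0.906% of all genes, and 0 members did in WT cells, against 3.05%. That KO count was 1 with the mean of all probe sets (Col4a1 at 0.90 on the log2 scale) and 1 with cyclic loess or with 32 added (Col4a2 at 0.98 and 0.99). Over both times and both genotypes, 19 members (40.4%) were lower than at 0 h in each case, against 33.3% of all genes, and 12 (25.5%) were higher, against 15.9%.

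**Figure D4:**
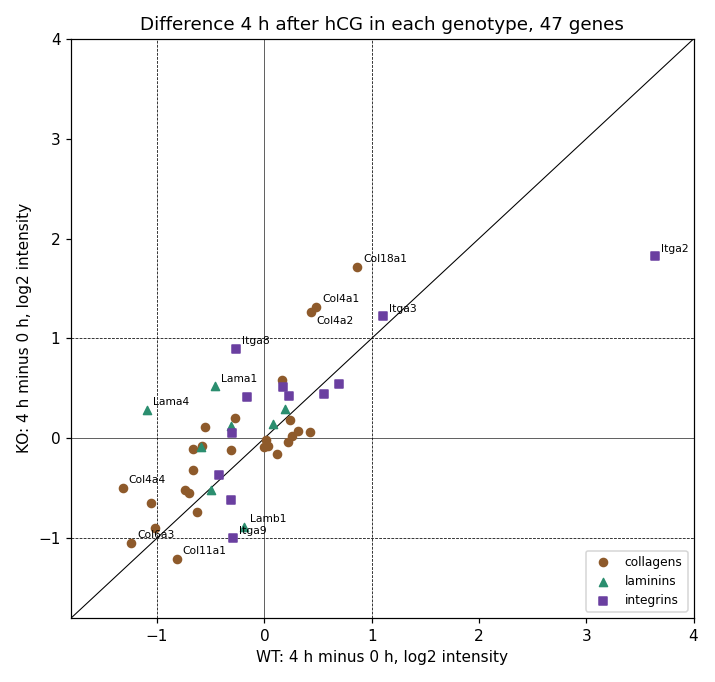
Difference between 4 h and 0 h after hCG (log2) in KO cells (vertical axis) and WT cells (horizontal axis) for the 47 members over the floor, with a diagonal at equal response. Itga2 lies furthest under the diagonal, at 1.82 in KO and 3.64 in WT, while Col4a1, Col4a2, Col18a1, Lama1 and Lama4 lie above it.

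Responses to hCG that both genotypes shared were tested with limma across all 11153 genes on the 6 arrays, in an additive model of time and genotype. The test sets the mean of 2.5 h and 4 h against 0 h, with Benjamini-Hochberg adjustment at 0.05. Its error, with 2 residual degrees of freedom, is how far a time difference varies with genotype, and not the spread between animals. Of 47 members, 3 rose and 4 fell, against 3.44% and 6.73% of all genes. Itga2 rose by 2.51 ± 0.35 (log2, SE, adjusted p = 0.0204), Itga3 by 0.94 ± 0.14 (adjusted p = 0.0229) and Col18a1 by 0.95 ± 0.22 (adjusted p = 0.0479). Each was higher after hCG in 4 of 4 comparisons with 0 h. Col6a3 fell by 0.96 ± 0.14 (adjusted p = 0.0231), Col11a1 by 0.91 ± 0.15 (adjusted p = 0.0270), Col6a4 by 0.83 ± 0.14 (adjusted p = 0.0271) and Col4a3 by 0.74 ± 0.15 (adjusted p = 0.0407), each lower in 4 of 4. Over 7 other settings the limma calls of Itga3 and Col6a3 stood in all 7 (adjusted p of 0.0230 to 0.0469 and 0.0183 to 0.0409). Itga2 ended with no floor (adjusted p = 0.0502) and Col11a1 with cyclic loess (adjusted p = 0.0547). Col18a1 ended with no floor, when probe sets were averaged and without 4 h, with a highest adjusted p in limma of 0.0929. Col4a3 ended in the same 3 settings and without 2.5 h, with a highest of 0.158, and Col6a4 when probe sets were averaged and without 2.5 h, with a highest of 0.0774.

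The genotype difference over the 3 times, tested with the same model in limma, passed for 0 of 47 members and for 0.0359% of all genes. At an unadjusted p under 0.05 there were 16 members, 3 higher and 13 lower in KO, which is 34.0% of members, against 17.4% of all genes. The lowest adjusted p was that of Itgb3 (−0.82 ± 0.13, log2, SE, adjusted p = 0.0903, lower in KO at 3 of 3 times). Col15a1 had −0.87 ± 0.15 (limma adjusted p = 0.115) and Itga2 −1.52 ± 0.33 (adjusted p = 0.161). A gap that changes with time, as for Itga2, enters the error of this model. Without the 4 h arrays 5 members passed (Col15a1, Col4a1, Col4a2, Itga2 and Itgb3), without the 0 h arrays 3 (Col15a1, Itga2 and Lama1), and without the 2.5 h arrays 0. These fits have fewer residual degrees of freedom. The share of all genes that passed them is not given here, so their counts have no background to be set against.

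Lists of other matrix and adhesion genes gave the setting of these members, read by the same 2-fold rule and to be set against the shares of all genes given above. Of 26 basement membrane and matrix glycoprotein genes over the floor, 0 were higher and 4 lower in KO at 0 h, 0 and 3 at 2.5 h, and 1 and 2 at 4 h. Sparc, a collagen-binding glycoprotein, read 1095, 962 and 1026 in KO cells and 2387, 2768 and 2386 in WT cells, 2.18-fold or more lower in KO each time. Tinagl1, a basement membrane protein, read 170, 284 and 326 in KO cells and 379, 644 and 850 in WT cells. Fn1, the fibronectin gene, went the other way, at 938, 1989 and 2962 in KO cells and 809, 997 and 1317 in WT cells. Of 24 collagen synthesis genes 0 were higher and 2 lower at 0 h, 0 and 1 at 2.5 h, and 2 and 1 at 4 h. Lox, the enzyme that crosslinks collagen, was at least 2-fold lower in KO at 0 h and 4 h, at 297, 324 and 358 in KO cells and 899, 624 and 877 in WT cells. The gene at 2.5 h was Pcolce, which aids procollagen processing. Those higher at 4 h were P4ha2 (768 in KO cells, against 345 in WT cells) and Colgalt2 (933, against 321). Of the 24 genes 2, 17 and 12 were above WT at 0 h, 2.5 h and 4 h. Of 26 genes of the integrin adhesion machinery 0 were higher and 0, 3 and 2 lower at the 3 times, and of 13 receptors for matrix other than integrins 0 were higher and 0, 2 and 2 lower.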

How the data were processed

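RNA of 6 granulosa cell samples, 1 for each genotype and time, was measured on Affymetrix arrays. The authors deposited 1 intensity per probe set and array, made with RMA in the affy package per the submitters' processing notes. Versions are not given in the sources used here. As deposited, intensities ran in whole numbers from 9 to 59425 with array medians of 54 or 55, a linear scale, so log2 was taken for every comparison. Quantile scaling in RMA hides changes in total RNA per cell, and rounding coarsens dim values. The number of arrays limits the precision.

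Of 45101 probe sets, 34958 named 1 gene in the platform annotation, 932 several and 9211 none. Each of 18194 genes was read from its brightest probe set. All 78 members were found in a gene table of GRCm38.p6, and 48 had more than 1 probe set. The members and the lists of families, matrix genes and cell markers were chosen with earlier results of these data known. Members are named where they differed at least 2-fold, were called by a fit or were among the brightest 3 of a family list; other matrix genes only where they differed at least 2-fold.

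The additive models used limma 3.58.1 in R 4.3.3 (prior 3.99 degrees of freedom). They were also run on simulated data with independent normal noise and no time course that differed by genotype. Such runs meet the model's own assumptions, so they cannot show how the calls hold in these data. Other settings were the mean of all probe sets, no floor, cyclic loess, 32 added before log2, a prior that follows the mean, and leaving out each time. Promoter windows came from RefSeq tables, which held 57 members.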

Additional observations from a re-analysis of the deposited data

Results flagged for a closer look

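With the deposited scaling, Lama1, Itga8 and Col6a1 moved one way after hCG in KO cells and the opposite way in WT cells. This held at both times for each gene. The difference was not tested, since there is 1 array a group. Lama1 had log2 differences from 0 h of 0.14 and 0.52 at 2.5 h and 4 h in KO cells and −0.56 and −0.46 in WT cells, and the responses at 4 h differed by 0.98. Itga8, which was dim, had 0.32 and 0.90 in KO cells and −0.25 and −0.27 in WT cells, a difference of 1.16. Col6a1 had 0.33 and 0.20 in KO cells and −0.05 and −0.27 in WT cells, a difference of 0.47. With cyclic loess the WT difference of Col6a1 at 2.5 h became 0.15, so its opposite direction at both times depends on the scaling.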

How the results depend on the processing

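The count of members at least 2-fold different between KO and WT at 0 h was 2, and became 1 with the mean of all probe sets, 1 with cyclic loess and 0 with 32 added before log2. At 4 h it was 2 and became 1 with cyclic loess. For WT at 2.5 h against 0 h it was 1, and 2 with no floor; for WT at 4 h against 0 h it was 7, and 2 when probe sets were averaged; for KO at 2.5 h against 0 h it was 3, and 1 with that mean. The limma hCG response had 7 members, 4 with no floor, and 5 to 6 when a time was left out. The genotype difference had 0, and 0 to 5 when a time was left out. Shares of all genes for the fits with a time left out are not given here. No difference that met the 2-fold rule changed sign, but of 423 member differences in all, 35 small ones (0.33 or less on the log2 scale) did when probe sets were averaged and 15 (0.20 or less) with cyclic loess. Of 29 member differences that met the 2-fold rule, 12 fell short of it with the mean of all probe sets, 6 with cyclic loess, 8 with 32 added and 0 with no floor. With the mean of probe sets Itga3 had 0.72 in KO and 0.70 in WT (log2, 4 h against 0 h), Lamb1 −0.70 in KO at 2.5 h and Itga9 −0.55 in KO at 4 h. With cyclic loess Itgb3 reached −1.01 for KO against WT at 2.5 h and Col18a1 1.06 for WT at 4 h. Genes under the floor, such as Col24a1, rest on values near background. No paired analysis was possible because each group has 1 array and the labels give no replicate numbers.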

Other observations

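Matrix and adhesion genes outside the 3 families also differed after hCG. Cd44, a receptor for hyaluronan, read 56, 83 and 269 in KO cells at 0 h, 2.5 h and 4 h and 87, 399 and 808 in WT cells, so that KO was 4.81-fold lower at 2.5 h. Sdc1, a syndecan that binds matrix through its sugar chains, read 1434, 933 and 1134 in KO cells and 1952, 3656 and 7391 in WT cells, 6.52-fold lower in KO at 4 h. Ptk2b, a kinase related to focal adhesion kinase, was dim in KO cells at 68, 62 and 69, and read 95, 138 and 293 in WT cells. Vcl, which links integrins to actin, read 2725, 4435 and 7461 in KO cells and 4189, 6211 and 10724 in WT cells, at 4 h 2.74-fold above 0 h in KO cells and 2.56-fold in WT cells. Tnc, the tenascin C gene and a ligand of the Itga9 product, read 477, 93 and 96 in KO cells and 329, 88 and 81 in WT cells, at 4 h 4.97-fold below 0 h in KO cells and 4.06-fold in WT cells.

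Of 26 adhesion machinery genes over the floor, 2 passed the 2-fold rule upward and 1 downward in KO cells at 4 h, compared with 0 h, against 3.87% and 4.56% of all genes. In WT cells 4 passed upward and 1 downward, against 4.91% and 9.11% of all genes. Of 26 basement membrane and matrix glycoprotein genes, 3 were higher and 2 lower in KO cells, and 1 higher and 4 lower in WT cells.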
